A study of Mus musculus with 12 samples.

Results

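The comparison was between embryoid bodies from Trim33 knock-down (Trim33-KD) and wild-type (WT) mouse embryonic stem cells, both treated with activin: 2 Trim33-KD-ac arrays minus 2 WT-ac arrays, 4 of the 12 arrays of the series. Embryoid bodies are floating aggregates in which stem cells begin to differentiate, here grown in low-attachment dishes in medium lacking LIF, the cytokine that maintains naive stem cells. The cells were of strain 129 in every group. At day 2.5 the aggregates received activin at 50 ng/ml, or the type I receptor inhibitor SB431542 at 10 mM as the labels write it, and RNA was taken after 2 h. The other 8 arrays are the same knock-down and WT genotypes under SB431542 and a Smad4-null line under both agents, with 2 arrays in each group. The labels do not give the knock-down construct or the number of clones, or say whether the replicates are separate cultures, so p-values measure the spread between these arrays, which may be technical.

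Activin and nodal bind receptor kinases that phosphorylate Smad2 and Smad3. These enter the nucleus with Smad4 and switch on both feedback inhibitors of the pathway and the genes of mesoderm and endoderm. Trim33, also called TIF1-gamma, is a ubiquitin ligase with a chromatin-reading PHD finger and bromodomain that binds phosphorylated Smad2 and Smad3 and has been studied for its part in opening the promoters of mesendoderm regulators such as Gsc and Mixl1. The comparison asks which transcripts differ when Trim33 is low and the pathway is stimulated.

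The targeted gene was low on both knock-down arrays. Trim33 log2 signals were 11.63 and 11.73 on the WT arrays and 10.29 and 10.25 on the Trim33-KD arrays, and the groups did not overlap. The difference was -1.41 (SE 0.19), which leaves 37.6% of the WT signal. Its adjusted p was 0.104 over all 18193 genes and 0.00519 over the 9097 genes in the upper 50% by mean signal. A second Trim33 probe set showed 10.53 and 10.52 against 8.99 and 8.62, while the dimmest, near the bottom of the scale at 2.86 and 3.42 against 2.98 and 3.83, did not separate the groups. Under SB431542 the Trim33 difference was -1.67.

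None of the 6 other proteins on the list of TIF1 and HP1 relatives passed the test. Trim24 (TIF1-alpha) was 11.65 and 11.64 in WT against 11.87 and 12.09 in Trim33-KD, a difference of 0.34 with an adjusted p of 0.215 in the upper 50%. Trim28 (TIF1-beta) differed by 0.20, Trim66 by 0.18, and the HP1 genes Cbx1, Cbx3 and Cbx5 by 0.08, -0.27 and -0.05. The Cbx3 probe set was dim. Other probe sets of Cbx1 gave -0.05, 0.61, 0.66 and 0.17, those of Cbx5 0.04, 0.24, -0.38 and 0.16. Those of Trim24 gave 0.07 and -0.07.

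Across the array, Chac1 was the only gene that passed when p-values were adjusted over all genes, 0.0055% of those tested. With limma fitted to the upper 50% alone, 45 genes rose (0.495%) and 16 fell (0.176%). That fit changes both the adjustment and the variance prior, whose degrees of freedom went from 1.43 to 4.92. With the prior of all genes kept and p-values adjusted over the upper 50%, Chac1 was again the 1 gene that passed, so the other 60 calls rest on the re-estimated prior. Centring each array on its own median moved the median of all genes by 0.14 and that split to 72 and 11. Together these 61 genes are 0.671% of those tested, and the count rested on single arrays. Leaving out replicate 2 of Trim33-KD-ac left 1 gene, and leaving out its replicate 1 gave 142. Dropping WT-ac replicate 1 left 4 genes and dropping replicate 2 left 25. The Smad4-null arrays enter through the shared estimate of spread, the choice of probe set and the mean signal that sets the upper 50%. With probe sets and the upper 50% held fixed, the count also fell when any single array of that line was left out. Unless another test is named, "rose" and "fell" below mean an adjusted p under 0.05 in the fit of the upper 50%, while each SE and interval is from the fit of all genes.

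The genes with the largest increases included regulators, enzymes and transporters linked to ATF4, the transcription factor that cells translate preferentially when amino acids run short or proteins misfold. Chac1, an enzyme that degrades glutathione, was 8.12 and 8.15 in WT and 10.44 and 10.34 in Trim33-KD. The groups lay more than 2 log2 units apart. The difference was 2.25 (SE 0.14, 95% interval 1.92 to 2.59), or 4.77-fold, with an adjusted p of 0.00986 over all genes. Chac1 no longer passed over all genes when any 1 of the 4 arrays compared was left out, or either WT-SB array.

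Trib3, a pseudokinase induced by amino acid shortage, was 7.57 and 8.05 in WT and 9.04 and 8.88 in Trim33-KD. It rose by 1.15 (adjusted p 0.0448), and a second Trib3 probe set gave 1.43. Of the 16 measured ATF4 stress regulators, of which 13 lay in the upper 50%, these were the 2 that rose, and none fell. The shares over the upper 50% were 0.495% and 0.176%. Both Trim33-KD arrays lay above both WT arrays for 12 of the 16 and below for 3, against 19% and 23.4% of all genes. The list's median difference was 0.53, beside -0.03 for all genes tested, and 0.37 over its upper 50% members. Earlier results for these genes on the same arrays were known when the list was chosen, so its direction is no independent evidence.

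The remaining members with higher mean signals in Trim33-KD did not pass, among them the dim Nupr1 and Atf3. Nupr1, a stress-induced chromatin protein, was 6.08 and 4.93 in WT and 8.16 and 7.96 in Trim33-KD, a difference of 2.56 (SE 0.45, adjusted p 0.225 over all genes). A second Nupr1 probe set of similar brightness, not tested, was 4.75 and 4.92 against 8.15 and 7.96 (3.22). Atf3, a transcription factor of the same response, was 6.61 and 7.08 against 7.79 and 8.34 (1.21, adjusted p 0.286 over all genes). In both the groups did not overlap. Stc2, a secreted glycoprotein, differed by 1.01 (adjusted p 0.0784) and the transcription factor Cebpb by 0.64 (0.103). Vldlr, Atf5, Eif4ebp1, Ddit4, Ppp1r15a and Sesn2 differed by 0.23 to 0.63, and Fgf21 by 1.40 with arrays that overlapped. A dim Vldlr probe set (-0.76) and a dim Eif4ebp1 one (-0.25) had the opposite sign.

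The transcript of Atf4 itself was not higher. Its signals were 12.03 and 12.12 in WT and 11.87 and 11.86 in Trim33-KD, a difference of -0.21 (adjusted p 0.568). Ddit3, which encodes CHOP, was 7.85 and 7.57 against 7.5 and 7.37 (-0.28, adjusted p 0.571), and Cebpg differed by -0.31. These 3 were the members with both Trim33-KD arrays below both WT arrays. Dimmer Cebpg probe sets gave 0.04 and -0.18. The arrays measure RNA, and ATF4 is controlled largely at translation.

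**Figure D1:**
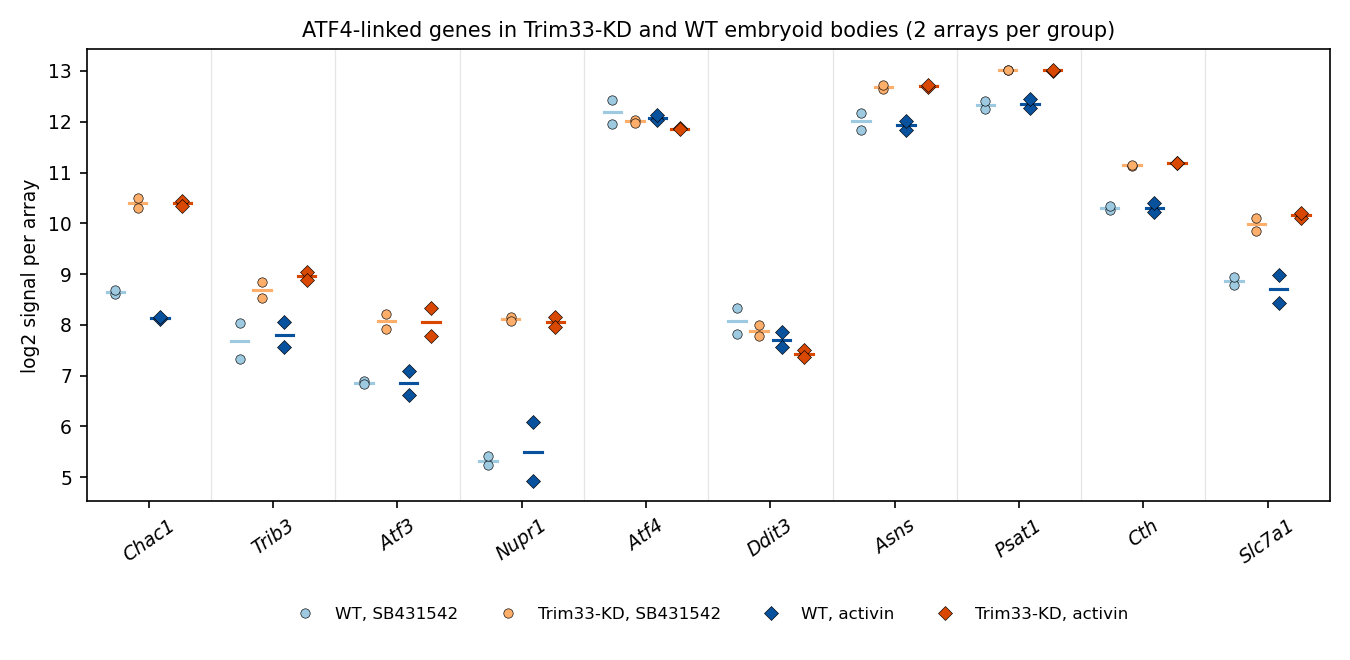
Log2 signal on each array for 10 ATF4-linked genes, with circles for SB431542, diamonds for activin, blue for WT, orange for Trim33-KD and a bar at each group mean of 2 arrays. Under activin the Trim33-KD points of Chac1 lie at 10.44 and 10.34 above WT points at 8.12 and 8.15, while those of Atf4 lie at 11.87 and 11.86 below 12.03 and 12.12.

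Of 11 measured genes for serine, one-carbon, asparagine and proline synthesis, 3 rose in Trim33-KD and none fell. The shares over the upper 50% were 0.495% and 0.176%. Cth, which makes cysteine from cystathionine, was 10.21 and 10.41 in WT and 11.19 on both Trim33-KD arrays, and rose by 0.88 (SE 0.11, adjusted p 0.00519). Asns, asparagine synthetase, was 11.84 and 12.01 against 12.68 and 12.72, and rose by 0.77 (adjusted p 0.0314). Psat1, an enzyme of serine synthesis, rose by 0.65 (adjusted p 0.0267). Both Trim33-KD arrays lay above both WT arrays in 10 of the 11, beside 19% of all genes and 24.5% of the upper 50%, and the list median was 0.61. Aldh18a1, for proline synthesis, differed by 0.52 without passing (adjusted p 0.0768). Its dimmest probe set had the opposite sign (-0.22). Pck2, the mitochondrial phosphoenolpyruvate carboxykinase, was 9.48 and 9.43 in WT and 10.48 and 10.42 in Trim33-KD, with a difference of 1.0 (SE 0.10, adjusted p 0.00349).

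Among 12 amino acid transporters, 1 rose and none fell, beside 0.495% and 0.176% of the upper 50%. Both Trim33-KD arrays lay above both WT arrays in 8 and below in 1, beside 24.5% and 21.8% of the upper 50%. The gene that rose was Slc7a1, the cationic amino acid transporter, at 8.43 and 8.97 in WT against 10.11 and 10.20 in Trim33-KD. Its rise was 1.45 (SE 0.20, adjusted p 0.00519). A second Slc7a1 probe set gave 0.97, and the dimmest gave -0.03. Slc6a9, the glycine transporter, differed by 0.58, Slc7a5 by 0.47 and its partner subunit Slc3a2 by 0.32. None of 12 aminoacyl-tRNA synthetases passed in either direction, and their median was 0.26, with Aars, Lars, Gars and Nars between 0.35 and 0.38. None of 14 endoplasmic reticulum chaperones passed either, with a median of 0.15 and Hspa5, the main luminal chaperone, at 0.37. Another Hspa5 probe set had the opposite sign (-0.04). The list of 13 heat shock and oxidative stress genes had a median of 0.22, with 9 above and 1 below in both arrays, beside 24.5% and 21.8% of the upper 50%, and none that passed. Its near-identical Hsp70 genes Hspa1a and Hspa1b, which may share signal, stood at 0.92 and 0.86.

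The 250 bases upstream of the start are shown for 3 genes that rose and carry the 8-base core TGATGNAA there, a sequence known from C/EBP-ATF response elements. Sequences are from RefSeq on GRCm38.p6, read 5′ to 3′ on the gene's strand, with the match in capitals. The match is the reverse complement of the core in Chac1 and Pck2. It begins at position -193 relative to the start in Chac1 (chr2:119350992-119351241, plus strand), at -23 in Asns (chr6:7693210-7693459, minus strand) and at -103 in Pck2 (chr14:55540016-55540265, plus strand).
Chac1: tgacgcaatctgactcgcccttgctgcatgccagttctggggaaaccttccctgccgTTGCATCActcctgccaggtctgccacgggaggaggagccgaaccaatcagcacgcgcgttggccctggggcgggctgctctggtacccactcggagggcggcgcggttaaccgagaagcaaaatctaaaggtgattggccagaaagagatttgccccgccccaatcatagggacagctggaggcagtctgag
Asns: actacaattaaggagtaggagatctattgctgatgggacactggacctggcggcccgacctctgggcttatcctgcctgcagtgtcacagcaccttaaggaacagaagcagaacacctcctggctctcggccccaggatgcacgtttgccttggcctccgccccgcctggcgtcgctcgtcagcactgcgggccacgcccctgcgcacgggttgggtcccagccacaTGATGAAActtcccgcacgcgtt
Pck2: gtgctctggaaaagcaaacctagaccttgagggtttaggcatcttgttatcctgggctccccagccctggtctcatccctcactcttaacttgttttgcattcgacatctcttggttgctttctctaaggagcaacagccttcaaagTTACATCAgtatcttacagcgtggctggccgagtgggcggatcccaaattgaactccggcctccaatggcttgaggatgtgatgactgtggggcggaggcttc

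Both strands were searched for TGATGNAA in a window of 250 bases before to 50 after each start. Of the 45 genes that rose, 29 had a promoter entry and 4 of these held a match (13.8%): the 3 shown and Trib3, whose match starts 14 bases after the start. None of the 14 entries among the 16 genes that fell held one. The share was 2.45% over 7482 genes of the upper 50% and 4.51% over all 27025 genes with an entry. In the ATF4 regulator list 6 of 15 entries held the core, and in the aminoacyl-tRNA synthetase list, where no gene passed, 5 of 8 did. The core was picked with ATF4-linked genes in view, so these shares, that of the genes that rose included, are no independent evidence. A match describes these letters only.

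Of 12 measured transcription factors of mesendoderm, 1 fell in Trim33-KD and none rose, beside 0.176% and 0.495% of the upper 50%. Only 5 of the 12 lay in the upper 50%, so the other 7 (Gsc, Lhx1, Evx1, Mesp1, Gata6, Sox17 and Gata4) were tested over all genes only. The cut-off, 7.48, applies to the mean over the whole series, including the SB431542 and Smad4-null arrays. A gene bright on the arrays compared can therefore miss it. On both WT arrays compared, Gsc, Lhx1, Evx1, Mesp1 and Gata6 were above 7.48, and Sox17 and Gata4 were below. Evx1 was above it on both Trim33-KD arrays too. Gsc, a homeobox gene of the organizer, was 9.04 and 9.22 in WT and 8.31 and 6.93 in Trim33-KD, a difference of -1.51 (SE 0.62, adjusted p 0.564 over all genes). Mixl1, a homeobox gene of the primitive streak, was 11.22 and 11.35 against 10.43 and 9.09 (-1.52, adjusted p 0.106). Eomes, a T-box factor needed for definitive endoderm, was 12.18 and 12.04 against 11.53 and 10.74 (-0.98, adjusted p 0.0771). In all 3 the groups did not overlap, and Trim33-KD replicate 2 was the lowest array.

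Otx2, a homeobox factor of the epiblast and anterior endoderm, was the factor that fell. Its signals were 11.63 and 11.52 in WT and 10.96 and 10.52 in Trim33-KD, with a difference of -0.84 (SE 0.18, adjusted p 0.0448). Both Trim33-KD arrays lay below both WT arrays in 11 of the 12, against 23.4% of all genes, and the list median was -1.02. That median was -0.62 without Trim33-KD replicate 2 and -1.28 without replicate 1. The summed linear signal of the list was 14309 to 14310 on the WT arrays and 5209 to 9357 on the Trim33-KD arrays. In bulk RNA, fewer cells of a type and less RNA per cell cannot be told apart.

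The rest of the list differed as follows without passing. Lhx1 and Foxa2, of organizer and endoderm, differed by -1.35 and -1.22. Foxa2 showed the unequal replicates most plainly, at 10.61 and 10.75 in WT against 10.32 and 8.61 in Trim33-KD. Evx1, Mesp1 and Gata6 differed by -1.02, -1.12 and -1.02, Sox17 by -0.51 and Hhex by -0.50. Evx1 was tight in both groups, at 8.85 and 8.80 against 7.84 and 7.76. Gata4 was the exception at 0.25, with arrays that overlapped. A dimmer Gata4 probe set had the opposite sign (-0.79), also with overlap.

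For scale, the Smad4-null line under activin, set against the same 2 WT arrays, differed by -4.08 for Gsc, -5.38 for Mixl1 and -3.66 for Eomes, but by -0.02 for Otx2. The Trim33-KD differences for these genes were -1.51, -1.52, -0.98 and -0.84. Both comparisons share the WT arrays.

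**Figure D2:**
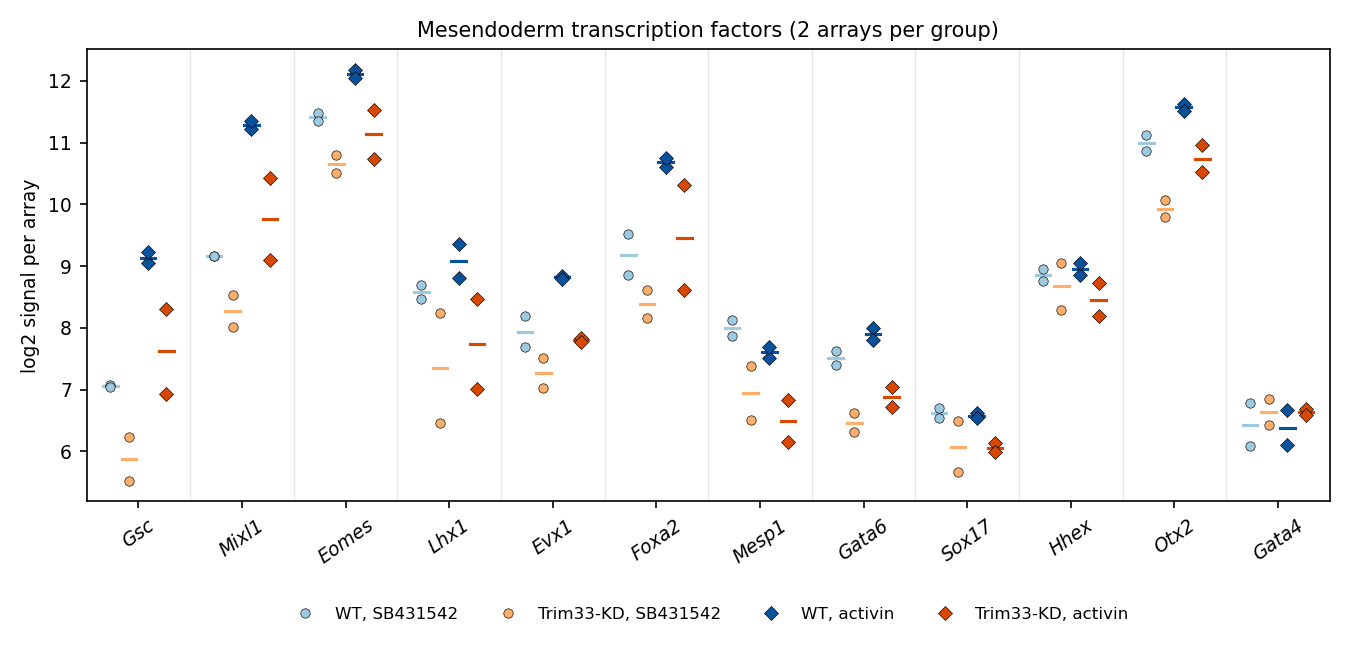
Log2 signal on each array for the 12 measured mesendoderm factors, with circles for SB431542, diamonds for activin, blue for WT, orange for Trim33-KD and a bar at each group mean of 2 arrays. Under activin the Trim33-KD points lie below the WT points for all but Gata4, and the knock-down replicates of Gsc, at 8.31 and 6.93, lie farther apart than the WT ones at 9.04 and 9.22.

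None of the 13 measured genes on the Smad feedback list passed in either direction. Smad7, which blocks the receptor, was 11.48 and 11.34 in WT and 11.39 and 11.68 in Trim33-KD, so the groups overlapped, and the difference was 0.12 (95% interval -0.51 to 0.76). A dimmer Smad7 probe set had the opposite sign, at 7.70 and 8.13 against 7.66 and 4.73 (-1.72). Pmepa1, which sequesters Smad2 and Smad3, was 9.82 and 9.95 against 9.82 and 9.87 (-0.04, 95% interval -0.50 to 0.42). With the receptor blocked by SB431542, WT Smad7 was 8.57 and 8.03 and WT Pmepa1 8.04 and 7.58. These intervals, not the overlap alone, bound how far the genotypes may differ.

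The other genes on the Smad feedback list lay between -0.32 and 0.36. The corepressors Skil, Ski, Tgif1 and Tgif2 differed by 0.18, -0.14, -0.15 and -0.32, the ubiquitin ligases Smurf1, Smurf2 and Wwp2 by -0.16, -0.04 and 0.09, and the pseudoreceptor Bambi by 0.36. Another Skil probe set had the opposite sign (-0.21). Smad6, Ldlrad4 and Usp9x differed by -0.16, -0.21 and -0.10. Dimmer Ldlrad4 probe sets gave 0.47, -0.50 and 0.84. The median over the 13 genes was -0.10, which became 0.03 with arrays centred on their medians, so no direction is given. None of 13 Smad transducers and receptors passed, and their median was -0.14.

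Of the 11 measured nodal ligands, processing enzymes and antagonists, 1 rose and none fell, beside 0.495% and 0.176% of the upper 50%. Lefty2, a secreted nodal antagonist, was 10.26 and 10.55 in WT and 11.14 and 11.23 in Trim33-KD, a rise of 0.78 (SE 0.15, adjusted p 0.0322). Its relative Lefty1 was 13.16 and 13.13 against 13.51 and 13.70, a difference of 0.46 that did not pass (adjusted p 0.380). Under SB431542, Lefty1 was 10.62 and 10.05 against 11.50 and 12.09, and rose by 1.46 (adjusted p 0.0107). The 2 Lefty1 effects differed by -1.0 (95% interval -1.80 to -0.20), a difference that did not pass after adjustment over all genes.

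The ligands Nodal and Gdf3 differed by 0.38 and 0.36 without passing, and another Nodal probe set had the opposite sign (-0.12). Fst, which binds activin, was 12.40 and 12.50 in WT and 11.97 and 11.38 in Trim33-KD, without overlap (-0.78, adjusted p 0.294). The co-receptor Tdgf1 differed by -0.24, Cer1 by -0.24, the convertases Furin and Pcsk6 by -0.20 and -0.08, and the dim inhibin genes Inhba and Inhbb by -0.80 and -1.0. The list median was -0.20 over all 11 and 0.14 over the 8 in the upper 50%, so it gives no direction.

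Fgf15, Msx1 and Fgf5 had lower signals in Trim33-KD without passing, and the arrays of each did not overlap. Fgf15, a fibroblast growth factor, was 10.14 and 10.11 against 9.64 and 9.74 (-0.44, adjusted p 0.169). Msx1, a homeobox gene also responsive to BMP, was 10.41 and 10.46 against 9.93 and 9.89 (-0.53, adjusted p 0.0768). Fgf5, the growth factor of primed epiblast, was 11.46 and 11.49 against 10.85 and 10.15 (-0.97, adjusted p 0.0512). Under SB431542 its difference was -0.98. Fgf8 differed by -0.77 and Fgf4 by 0.51, and none of 13 FGF and ERK targets passed (median -0.22). Other Fgf4 probe sets gave 0.53, -0.20 and -0.18. In both arrays 8 of the 13 lay below WT and 3 above, beside 21.8% and 24.5% of the upper 50%, so the count above is near the background.

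**Figure D3:**
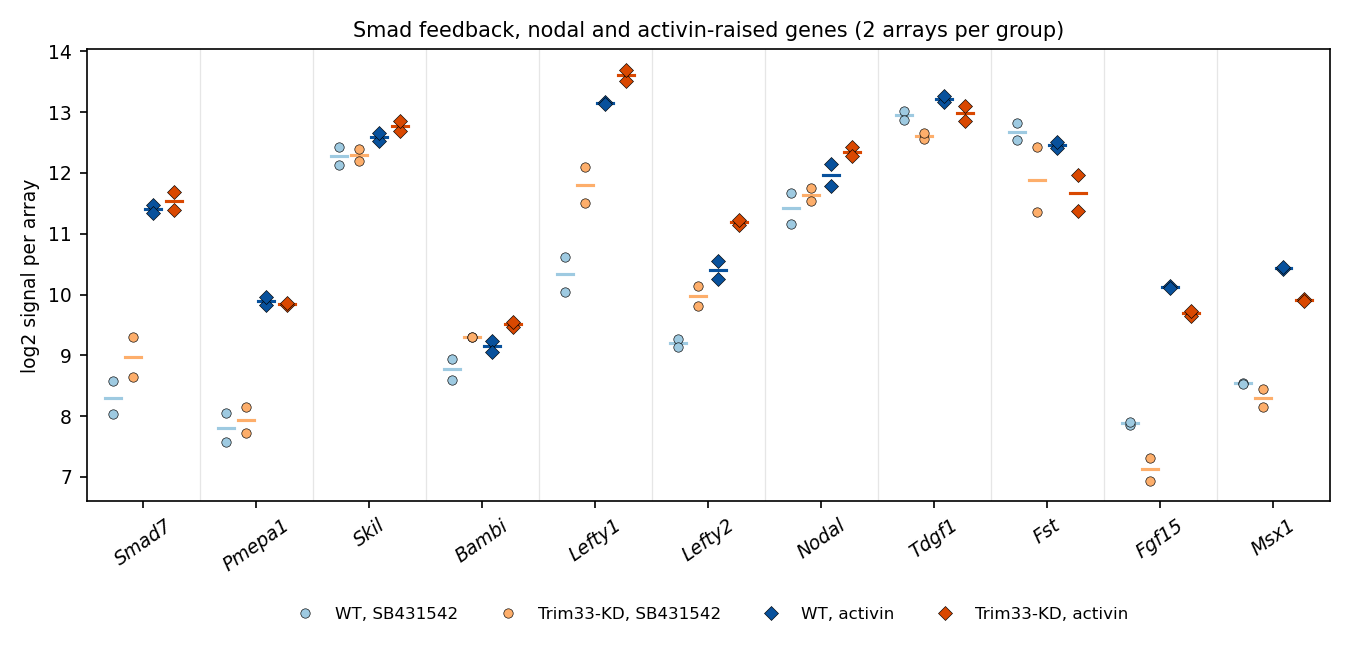
Log2 signal on each array for Smad feedback and nodal pathway genes and for Fgf15 and Msx1, with circles for SB431542, diamonds for activin, blue for WT, orange for Trim33-KD and a bar at each group mean of 2 arrays. Under activin the points of Smad7 and Pmepa1 overlap between genotypes, those of Lefty2 are higher in Trim33-KD (11.14 and 11.23 against 10.26 and 10.55), and those of Fgf15 and Msx1 are lower.

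Other genes that rose had varied roles. Calcoco2, an autophagy receptor, was 6.09 and 7.37 in WT and 8.96 and 8.46 in Trim33-KD, a rise of 1.98 with a wide error (SE 0.39). Dnmt3l, the cofactor of the de novo DNA methyltransferases, was 10.80 and 10.55 against 11.80 and 12.30, a rise of 1.37 (adjusted p 0.00985). It was the 1 of 8 DNA methylation genes that rose, and none fell, beside 0.495% and 0.176% of the upper 50%. Dnmt3a stood at 0.30 and Uhrf1 at 0.13. Another Uhrf1 probe set had the opposite sign (-0.61), as did 1 of Dnmt3a (-0.03). The largest remaining increases were in Akr1b8, an aldo-keto reductase (1.33), Aass, which degrades lysine (1.32), Klhl8, a kelch protein (1.23), Mylpf, a fast-muscle myosin light chain (1.16), Slc23a1, a vitamin C transporter (1.16), Jcad (1.15) and Tpd52l1 (1.11). Ccn2, a matricellular target of TGF-beta, rose by 1.01. It was the 1 of 14 TGF-beta matrix targets to do so, beside 0.495% of the upper 50%.

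The genes with the largest falls were Gm6958, Trim33, Stard8, Rhox5 and Ccnd2. Gm6958, a predicted gene, was 9.45 and 8.99 in WT and 7.23 and 7.09 in Trim33-KD, a difference of -2.06 (SE 0.29). Rhox5, an X-linked homeobox gene, was 11.64 and 11.87 against 10.70 and 10.45 (-1.18, adjusted p 0.00349). Ccnd2, cyclin D2, was 10.49 and 10.48 against 9.36 and 9.45 (-1.08, adjusted p 0.00540), and all 7 of its probe sets gave a negative difference. It was the 1 of 17 cell cycle genes that fell, and none rose, beside 0.176% and 0.495% of the upper 50%.

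The remaining falls among the 12 largest were in Mex3a, an RNA-binding protein (-1.03), Nrarp, a Notch feedback inhibitor (-1.01), Cdk14 (-0.92), the phospholipase Plcd1 (-0.92), Klhl23 (-0.86), the cytidine deaminase Cda (-0.84) and Otx2. Of the 24 genes named as largest in the 2 directions, 2 had a probe set of the opposite sign, the dim ones of Trim33 and Slc7a1 given above.

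Wnt and mesoderm lists showed no gene that passed. Of 11 Wnt targets, 8 lay below WT and none above in both arrays, beside 23.4% and 19% of all genes, with a median of -0.42 and Dkk1, Axin2 and Nkd1 at -0.69, -0.49 and -0.47. Of 19 nascent mesoderm genes, 1 lay in the upper 50%, and the median of -0.52 became 0 with signals raised to a floor of 64. Naive pluripotency genes had a median of 0.08 over 15 genes with none that passed. Primed epiblast genes had a median of -0.33 over 11, with Otx2 the 1 that fell, beside 0.176% of the upper 50%.

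**Figure D4:**
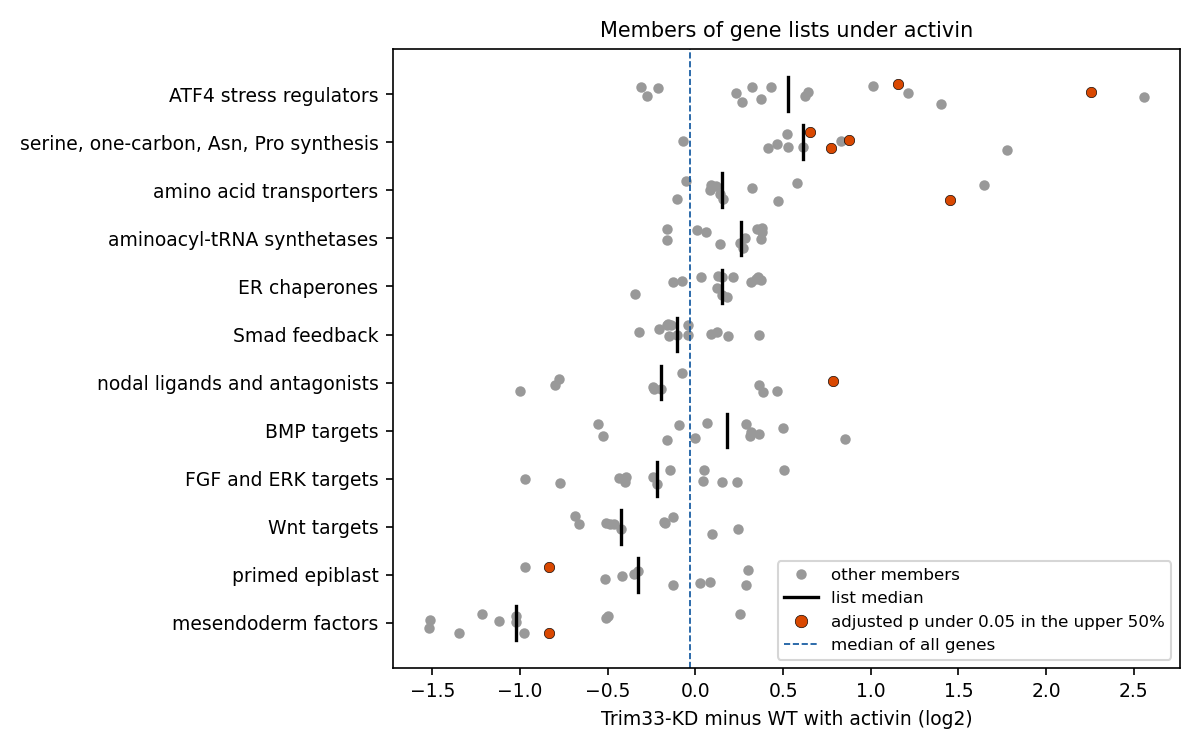
Trim33-KD minus WT difference under activin, in log2 units, for every measured member of 12 gene lists, with a black bar at each list median, orange points for members with an adjusted p under 0.05 in the upper 50%, and a dashed line at the median of all genes (-0.03). The medians run from 0.61 for serine, one-carbon, asparagine and proline synthesis and 0.53 for ATF4 stress regulators to -1.02 for mesendoderm factors.

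The same knock-down comparison under SB431542 asks whether an effect differs with the stimulus. No gene passed in the test of the difference between the 2 effects, either over all genes or in the upper 50%, with limma, where 485 and 89 genes had an unadjusted p under 0.05, fewer than the 910 and 455 that uniform p-values would give. All 61 genes that rose or fell under activin had the same sign under SB431542, with arrays that did not overlap there either. The background of such separation in the upper 50% was 23.3% above and 18% below WT under SB431542, and 24.5% and 21.8% under activin. The spread used to choose the 61 was estimated over every array, those under SB431542 included. Genes with close SB431542 replicates were thus favoured, so the lack of overlap there is partly built in. The background covers genes not chosen this way and is no fair scale for it. Calls under SB431542 rest on the same spread. Of the 61, 49 also passed under SB431542, which is 80.3% of the activin calls and 46.7% of the 105 called under SB431542 (1.15% of those tested, with 0.791% raised and 0.363% lowered). With the prior of all genes kept, 1 gene passed in each treatment. Across upper 50% genes the 2 effects had a Pearson correlation of 0.78 and a Spearman correlation of 0.73, a description over genes. The arms share no array, but same-numbered arrays of one genotype deviated together across treatments (r of 0.39 in WT and 0.34 in Trim33-KD), so they are not fully separate. The test of the difference between effects did not model this pairing, so its finding no gene is limited to an unpaired fit.

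Mesendoderm factors were also lower when the receptor was blocked, with a list median of -0.85 and 10 of 12 below WT in both arrays, beside 21.6% of all genes. The SB431542 differences were -1.18 for Gsc, -0.90 for Mixl1 and -0.76 for Eomes. Their effects under activin minus those under SB431542 were -0.34 (95% interval -2.38 to 1.70), -0.62 (-2.11 to 0.87) and -0.21 (-1.03 to 0.61), so neither a larger nor a smaller effect under activin was resolved. The ATF4 regulators had a median of 0.43 under SB431542. Chac1 was 8.61 and 8.69 in WT and 10.49 and 10.30 in Trim33-KD there, a difference of 1.74.

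Among the 61, the difference between the effects had an unadjusted p under 0.05 in 2 genes, Chac1 and Nrarp. For Chac1 it was 0.51 (95% interval 0.04 to 0.98) and for Nrarp -0.51 (-0.95 to -0.07), and neither passed after adjustment. The 12 genes that did not pass under SB431542 included Trib3 (1.01 there, adjusted p 0.0604), Klhl23 (-0.42) and Cda (-0.58). A gene on 1 side of the threshold in 1 treatment only is not shown to differ between them.

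**Figure D5:**
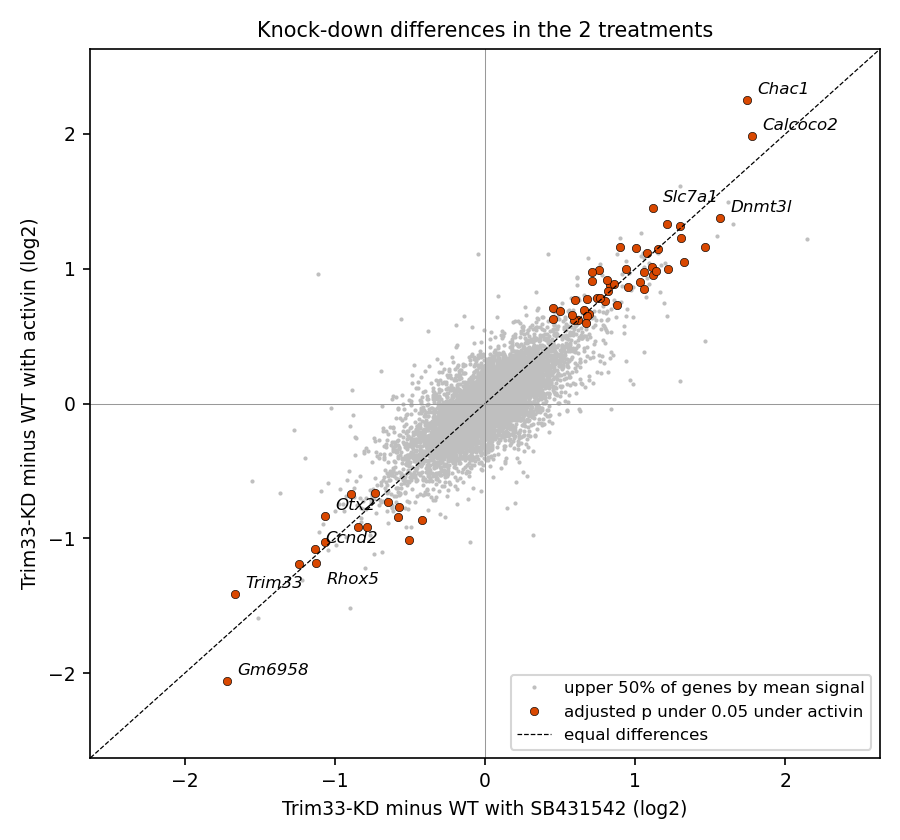
Trim33-KD minus WT under activin (vertical) against the same difference under SB431542 (horizontal), in log2 units, for genes in the upper 50% by mean signal, with the 61 genes that passed under activin in orange and a dashed line of equal differences. All 61 lie in the lower left or upper right, and Chac1, at 1.74 and 2.25, lies above the line.

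Markers of the aggregates' own state were bright in both groups: Pou5f1 was 13.26 and 13.18 in WT and 13.17 and 13.25 in Trim33-KD. Summed linear signals of the primed epiblast list were 36759 to 37540 in WT and 33195 to 34590 in Trim33-KD. Trophectoderm markers were 5654 to 6033 against 3218 to 4574, a gap that came from Eomes, which the mesendoderm list shares (4223 to 4643 against 1708 to 2966). Without it the other 8 markers summed to 1390 to 1432 in WT and 1510 to 1608 in Trim33-KD, and 7 of the 8 had a positive difference, none of which passed. Blood and endothelium markers were 1359 to 1380 against 917 to 1103, with 9 of 15 below 64 on all arrays of each group. The 2-cell-like markers were 388 to 401 against 748 to 838. Usp17la, the 1 member in the upper 50%, was 8.19 and 8.23 in WT and 9.38 and 9.04 in Trim33-KD, and rose by 1.0. Of the 6 markers, 5 lay below 64 on both WT arrays and 4 on both Trim33-KD arrays. With signals raised to a floor of 64 the list median was 0. Extraembryonic endoderm markers (11340 to 11770 against 11719 to 11720) and fibroblast markers (643 to 692 against 660 to 682) overlapped. The part of these cell types in the results was not tested.

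On the 4 arrays compared, median log2 signals were 6.06 and 6.05 in WT and 5.97 and 5.87 in Trim33-KD, so they separated by genotype. Centring on these medians moved the median of all genes by 0.14, as given above. The number of arrays limits precision. For the 18S control, WT-ac replicate 1 read 5.53 and the remaining 3 read 7.56 to 8.55. The difference between the 3′ and 5′ Actb control probe sets, a sign of RNA integrity, was 0.31 to 0.40 on all 4. The part of the 18S signal in the results was not tested.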

How the data were processed

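Biotin-labelled RNA from 12 embryoid body samples was hybridised to Affymetrix arrays, and the values used are the log2 signals the authors deposited, with a trimmed mean of antilog signals (2% trimmed) of 500 on every array. No step between scan and deposited values is given in the sources used here, and per the submitters' processing notes limma was used. Of 45101 probe sets, 34945 non-control sets carried exactly 1 symbol in the platform annotation, 932 several and 9160 none, which stayed unnamed. For each of 18193 genes the set with the highest mean over 12 arrays was kept. limma 3.58.1 (R 4.3.3) fitted 1 mean per group over all 12 arrays (6 residual df), with Benjamini-Hochberg adjustment at 0.05. The contrast was Trim33-KD-ac minus WT-ac, then the same under SB431542, then their difference. The upper 50% by mean signal, a listed alternative to testing all genes, supplies most calls, with its own variance prior. Scripts were tested on simulated data.

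Named genes were Trim33, the 12 largest changes each way that passed without overlap of arrays (filled from the upper 50%), all members of 5 lists, and at most 4 from every remaining list. The members and lists were chosen with earlier results of these data known. The replicate number is not stated to mark a batch, so the main fit used no block. Same-numbered arrays were checked for pairing: the WT-ac and Trim33-KD-ac deviations correlated at -0.14. Across treatments within a genotype they correlated at 0.39 in WT and 0.34 in Trim33-KD. The test of the difference between effects did not model that pairing. Alternatives covered normalization, signal filters, probe sets, the prior, weights and each array left out. Figures were drawn with matplotlib 3.10.9.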

Additional observations from a re-analysis of the deposited data

How the results depend on the processing

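Over all genes, 1 gene passed under activin with quantile normalization, median centring, probe set means, without _x_at and _s_at sets, with array weights and with a threshold of 1.5-fold. The count was 20 in the upper 75% by mean signal, 14 with a floor of 64, 50 with a trended and robust prior and 61 in the upper 50%. It was 0 with only Trim33-KD and WT arrays, with only the groups compared, and without both arrays of narrow spread, and 0 to 1 with any array left out, Kcnk16 being the 1 gene without Trim33-KD-ac replicate 1. Under SB431542 the limma count of 0 (1961 genes had an unadjusted p under 0.05) became 8 with quantile normalization, 4 with median centring, 105 in the upper 50%, 23 in the upper 75%, 14 with the floor and 101 with the trended prior, and 0 to 1 with an array left out. The difference of effects gave 2 with the floor and 0 to 2 with an array left out.

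Replicate number as a block, a single shift common to all groups, gave 0 genes over all genes under activin and 0 under SB431542. It gave 0 for the difference and 73 in the upper 50%. The 61 upper 50% calls became 18 with probe set means, 15 with only Trim33-KD and WT arrays, 31 with only the groups compared, 38 without both arrays of narrow spread, 1 with a threshold of 1.5-fold, 1 with the prior of all genes kept, and 1 to 142 with an array left out. These upper 50% alternatives were chosen after seeing the data. Of the 61 genes, 58 kept their direction in every setting run. Changes of prior, weights, block, fold threshold or arrays outside the groups compared left each difference as it was. Leaving out 1 compared array cannot reverse a gene whose arrays do not overlap. The count of 58 was thus largely fixed in advance. Greb1l (-0.23), Nudt9 (-0.88) and Prim2 (-0.092) reversed with probe set means, and Chac1 alone passed in every upper 50% setting. The causes of the other shifts were not tested. A gene below the upper 50% has no call of its own there.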

Other observations

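Klhl8, Hsd17b11 and Nudt9, noticed after their values were seen, are near neighbours on mouse chromosome 5 and all rose in the upper 50%. Their differences under activin were 1.23, 0.78 and 0.69, and 1.30, 0.74 and 0.66 under SB431542. Dim Hsd17b13 lies between Klhl8 and Hsd17b11. The bright genes around them, Aff1 (0.15), Ptpn13 (0.20), Wdfy3 (0.12) and Zfp33b (0.41), did not pass, and the median of 600 genes of the chromosome was 0.02. The Nudt9 difference reversed to -0.88 when its probe sets were averaged.

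Apela, Penk, Nefm and Plagl1 rose in the upper 50% and were also picked after their values were seen. Apela, a ligand of the apelin receptor, was 11.31 and 11.42 in WT and 12.02 and 12.24 in Trim33-KD under activin, a rise of 0.76. Penk, the enkephalin precursor, rose by 0.73. Nefm, a neurofilament subunit, rose by 1.05 and Plagl1, an imprinted zinc finger gene, by 0.98, with a dim Plagl1 probe set at -1.32.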
